A study of Mus musculus with 27 samples.

Results

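The 10 genes described here encode the precursors of neuropeptides that are made in the hypothalamus, the striatum and, for several of them, in interneurons of the cortex: Npy, Sst, Trh, Gal, Cartpt, Tac1, Penk, Pdyn, Avp and Oxt. They were taken by symbol from the gene read count table, where they are 10 of 55416 genes, and all 10 were found. RNA of the whole brain of female fetuses was sequenced on gestational d12, d15 and d17, with the day of the vaginal plug as day 1, in 3 libraries for each of 9 groups. The strains were AKR/J, an inbred strain that the study calls short-lived, C57BL/6J, an inbred strain that it calls long-lived, and B6.Cg-Cav1tm1Mls/J (Cav1-null), a short-lived congenic line that carries a targeted Cav1 allele on a C57BL/6J background in every tissue. No treatment is given for any group, and the labels do not say which fetuses shared a litter, so the p-values measure the spread between these libraries. The study compared strains over the early phase (d12 to d15) and the late phase (d15 to d17) of brain development.

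A neuropeptide gene is translated into a long precursor that enters the secretory granule, where prohormone convertases cut it at pairs of basic residues and further enzymes trim and amidate the pieces. The released peptides act on G protein-coupled receptors, often far from the release site, and are ended by peptidases outside the cell. Npy and Sst mark GABAergic interneurons as well as hypothalamic cells, Tac1 and Pdyn mark the striatal neurons of the direct pathway, Penk those of the indirect pathway, and Avp and Oxt are the hormones of the posterior pituitary. In RNA of a whole brain, fewer cells of a type and less RNA per cell cannot be told apart.

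Reference sequence is shown for the members whose promoter holds the cAMP response element, for 1 of the shorter forms of it in Tac1, and for the alternative exons of Tac1. The cAMP response element, TGACGTCA, is the site where CREB acts on the Sst gene, and it was searched on both strands in the 250 bases before the RefSeq start of 9 members, since Penk has no entry. It occurred in Sst, with its first base 48 bases before the start, and in Cartpt, 112 bases before the start, and 1.55% of 32851 RefSeq promoter windows of this length hold it. Its shorter form, TGACG, which lies within every full element, occurred without the full element in Tac1, with its first base 43 and 197 bases before the start, and in Trh, 96 bases before it, and 17.8% of the windows hold it. The TATA box searched, TATAAA, was in none of the 9 and in 12.4% of all windows. The 30 bases around the element follow, 5′ to 3′ on the strand of the gene, from RefSeq promoter sequences placed on GRCm39 by exact match, with the element in capitals (in Tac1 the shorter form nearer to the start, which lies on the other strand). The GENCODE models of these 3 genes begin upstream of the RefSeq start, and the Tac1 stretch lies within exon 1 of the transcript used below to number the exons.
Sst, chr16:23709624-23709653, minus strand: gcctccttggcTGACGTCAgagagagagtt
Cartpt, chr13:100037285-100037314, minus strand: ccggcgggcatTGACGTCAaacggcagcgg
Tac1, chr6:7555006-7555035, plus strand: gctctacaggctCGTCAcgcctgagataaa
Tac1 also has a pair of coding exons whose use sets which tachykinins the precursor holds. Exon 6 encodes neurokinin A, and exon 4 is present in the beta precursor and absent from the gamma precursor (exons numbered in the 7-exon GENCODE transcript).
Tac1 exon 4, chr6:7557216-7557260, plus strand: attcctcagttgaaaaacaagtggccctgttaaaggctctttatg
Tac1 exon 6, chr6:7559099-7559152, plus strand: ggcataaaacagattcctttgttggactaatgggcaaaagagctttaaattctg

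The libraries held 26363697 to 39759702 counted reads, and levels are in CPM, the read count per library size, over library sizes scaled by TMM across the 27 libraries. Cav1, the targeted gene, was at 0 to 0.509 CPM in the 9 Cav1-null libraries and at 9.25 to 39.9 CPM in the 18 others. The AKR/J d12 libraries stood apart by high erythroid and low neuron RNA. Summed over their list, erythroid markers were at 101722, 33242 and 197902 CPM in them and at 570 to 18615 CPM in the 24 others. Trophoblast and decidua genes were at 779, 78.4 and 36.3 CPM in them and at 82.2 CPM in 1 C57BL/6J d12 library, with no other library above 9.54 CPM. For yolk sac genes 1 AKR/J d12 library stood apart, the values being 2047, 270 and 56.1 CPM against 91.2 to 636 CPM elsewhere. Neuron markers summed to 2406, 2185 and 2703 CPM in these 3 libraries and to 4106 to 9437 CPM in the others, striatal markers to 458, 426 and 484 CPM against 622 to 1479 CPM, and radial glia and progenitor markers to 4422, 3057 and 4951 CPM against 1300 to 3442 CPM. The hypothalamic regulators (16 transcription factors such as Otp, Sim1 and Nkx2-1) summed to 429 to 1227 CPM over the 27 libraries. The striatal projection neuron markers summed to 426 to 1479 CPM. Both lists were thus read in every library, though the sums do not show which region supplied the RNA. Pituitary markers, which a brain with an attached pituitary would bring, summed to 7.49 to 50.0 CPM.

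The summed level of the 10 genes was higher on d17 than on d12 in all 3 strains, a sum to which Sst, Npy and Tac1 gave the most on d17. The 10 genes together summed to 59.2, 23.7 and 103 CPM in AKR/J, 71.9, 61.3 and 42.0 CPM in C57BL/6J and 62.8, 81.5 and 76.1 CPM in Cav1-null on d12. On d17 the sums were 111, 128 and 147 CPM in AKR/J, 173, 113 and 149 CPM in C57BL/6J and 138, 137 and 130 CPM in Cav1-null. No d17 library was as low as the highest d12 library of its strain. Gene by gene, 5, 7 and 6 of the 10 had all d17 libraries above all d12 libraries in AKR/J, C57BL/6J and Cav1-null, against 32%, 21.4% and 27.4% of the 18383 genes with at least 1 CPM in 3 libraries, the genes meant by all genes wherever overlap is given. Oxt, which reached 1 CPM in no library, is not among those genes but is counted in the 7 and the 6. Trh and Penk overlapped in each strain, and the mean of Cartpt on d17 was 0.154, 0.498 and 0.442 of that on d12, with no overlap in Cav1-null, where 30.2% of all genes lay wholly lower. Per kilobase of the canonical transcript, the order of levels in C57BL/6J on d17 was Npy (38.6 CPM per kb), Sst (37.4), Tac1 (10.05), Avp (6.86), Penk (5.41), Gal (3.11), Pdyn (2.81), Cartpt (2.54), Trh (0.941) and Oxt (0.639). In C57BL/6J on d12 the same scale put Sst first at 17.3 CPM per kb and Avp and Oxt last at 0.0566 and 0.0391 CPM per kb. In AKR/J on d12 it put Cartpt first at 21.1 CPM per kb, with Sst next at 7.93. Neither Npy and Sst nor Tac1 and Avp can be ordered in C57BL/6J on d17, since over the length of all exons of a gene the levels were 12.1 and 17.8 CPM per kb for the former pair and 5.21 and 6.37 CPM per kb for the latter.

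**Figure D1:**
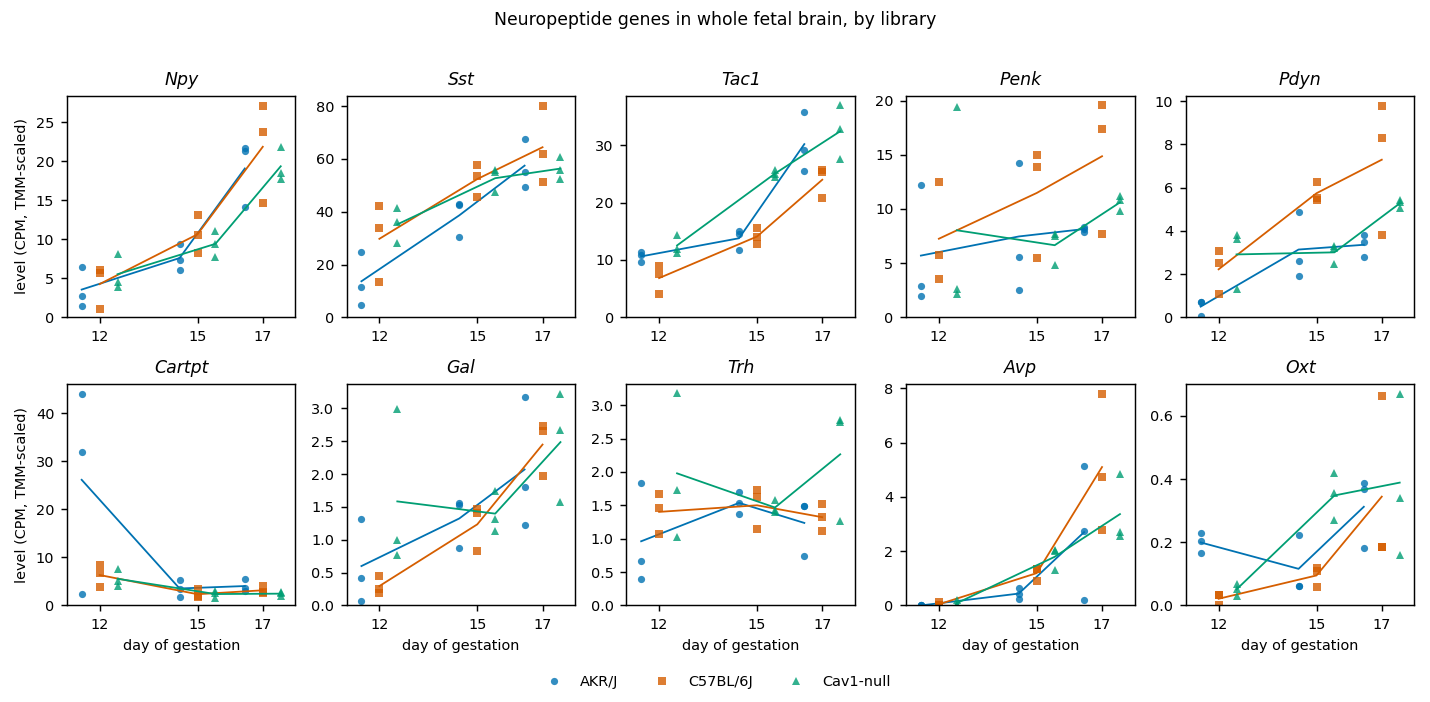
Level of each gene (CPM after TMM scaling) against the day of gestation, 1 point per library, with a line through the means of the 3 libraries of each strain and day. The means of Npy, Sst, Tac1, Pdyn and Avp are higher on each later day in all 3 strains, Cartpt is highest on d12, and Trh and Oxt do not exceed 3.18 and 0.669 CPM.

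Tests between consecutive days were made with edgeR's quasi-likelihood test over all genes, using Benjamini-Hochberg adjustment, and a gene counts as called where the adjusted p was under 0.05. In AKR/J, 8 of the 10 genes passed the filter on low counts in the early phase, where Pdyn rose and Cartpt fell, against 28.9% of all genes tested that were called. The low neuron level of the AKR/J d12 libraries stands beside every early value of AKR/J, and its part was not tested. Between d15 and d17, 9 were tested and Npy, Sst and Tac1 rose, against 22.1%. In C57BL/6J, 9 were tested in each phase. Gal, Pdyn and Avp rose and Cartpt fell in the early phase, against 14.9% called, and Npy, Tac1 and Avp rose in the late phase, against 13%. In Cav1-null, Sst, Tac1 and Avp rose and Cartpt fell among 9 tested in the early phase, against 23.4%, and Npy, Tac1, Penk, Pdyn and Avp rose among 10 tested in the late phase, against 27.3%. No gene of the 10 fell in the late phase in any strain by this test. Avp and Oxt enter a test only where a later day or another strain brings enough reads, so these counts say nothing of them where they were not tested. In the early phase of C57BL/6J and Cav1-null, Avp passed the filter through its d15 reads. A fall could hardly have been called there, so its counted rises carry that bias.

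These calls come from fits on the 6 libraries of a comparison. With 1 model over all 27 libraries, in which every group shares 1 estimate of the spread, none of the 5 late calls in Cav1-null was kept (adjusted p = 0.233 to 0.708), nor were those of Npy (0.0672) and Sst (0.379) in the late phase of AKR/J, Npy in the late phase of C57BL/6J (0.11), and Cartpt in the early phase of C57BL/6J (0.102) and Cav1-null (0.192). The early call of Sst in Cav1-null was also lost (0.344), and between strains those of Avp (0.194) and Pdyn (0.123) on d15, with adjusted p in parentheses throughout. The late calls of Tac1 in AKR/J and C57BL/6J and its early call in Cav1-null were kept (adjusted p = 0.000792, 0.00877 and 0.00164), as was its difference between Cav1-null and C57BL/6J on d15 (adjusted p = 0.00262). Every direction of these calls was the same. The model also added calls, of Sst and Avp in AKR/J, Tac1 in C57BL/6J and Oxt in Cav1-null from d12 to d15, and of Avp in AKR/J from d15 to d17.

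Leaving out a single library also brought calls that the full comparisons lack. From d12 to d15 in AKR/J these were Avp without d12 replicate 1, 2 or 3 or d15 replicate 3, Sst without d12 replicate 2 or 3, and Npy without d12 replicate 3. From d15 to d17 in AKR/J they were Penk without d15 replicate 2 and Avp without d17 replicate 3. In C57BL/6J they were Tac1 in the early phase without d12 replicate 3, and Gal and Pdyn in the late phase without d17 replicate 2. In Cav1-null, early calls came for Npy without d12 replicate 2 and for Oxt and Penk without d12 replicate 3, and late ones for Gal without d17 replicate 1 and Trh without d17 replicate 3. Between strains on d17, where none was called, Pdyn and Penk were called in both comparisons without C57BL/6J d17 replicate 2. For AKR/J, Cartpt was called on d12 without AKR/J d12 replicate 2. On d15, Pdyn was called for AKR/J without AKR/J d15 replicate 3, and Sst without C57BL/6J d15 replicate 1. For Cav1-null on d15, Penk was called without C57BL/6J replicate 2, Avp without Cav1-null replicate 2, and Oxt without replicate 3 of either strain. DESeq2 added Sst early and Avp late in AKR/J, Tac1 early and Gal late in C57BL/6J, and Npy early in Cav1-null.

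The median log2 fold change over the members tested was 0.86, 0.99 and 0.04 in the early phase and 0.59, 0.49 and 0.65 in the late phase for AKR/J, C57BL/6J and Cav1-null. Over all genes tested it was between -0.04 and 0.03.

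**Figure D2:**
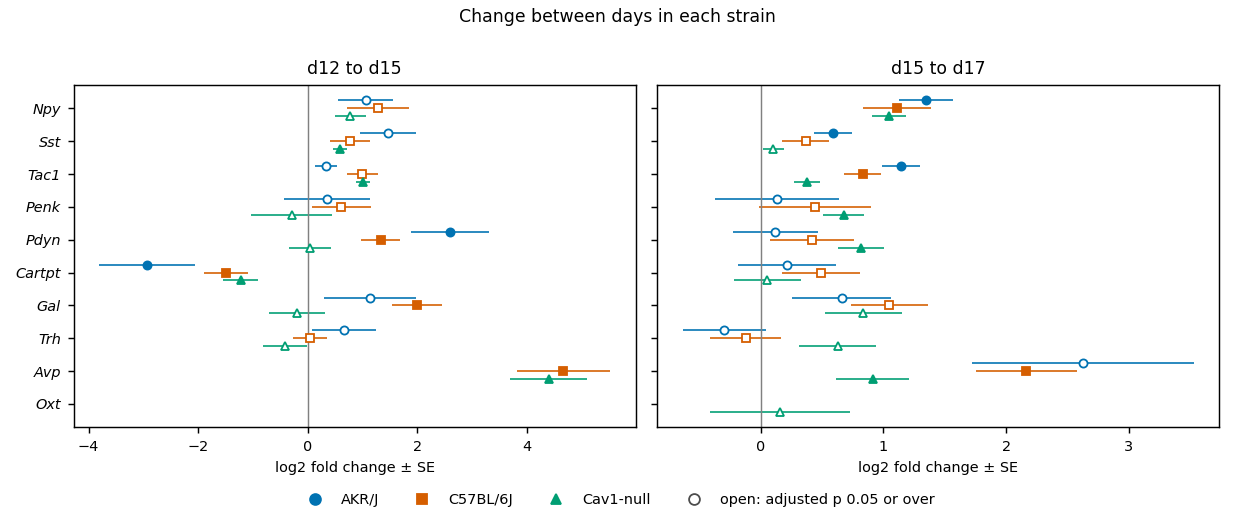
Log2 fold change of each gene between consecutive days with its standard error, by strain, from the 6 libraries of each comparison, with filled symbols for an adjusted p under 0.05. Late-phase values of Npy and Tac1 are filled in all 3 strains, and Cartpt is filled below 0 in all 3 strains in the early phase.

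Npy (ENSMUSG00000029819, chr6:49799026-49806489, plus strand) encodes neuropeptide Y, which stimulates feeding from the arcuate nucleus and also marks cortical and striatal interneurons. Its level on d12 was 2.76, 1.51 and 6.40 CPM in AKR/J, 6.06, 5.71 and 1.02 CPM in C57BL/6J and 4.58, 8.14 and 3.86 CPM in Cav1-null. On d15 it was 7.32, 6.02 and 9.46 CPM in AKR/J, 8.21, 10.6 and 13.2 CPM in C57BL/6J and 9.41, 11.1 and 7.79 CPM in Cav1-null. On d17 it was 14.1, 21.8 and 21.4 CPM in AKR/J, 27.1, 14.7 and 23.8 CPM in C57BL/6J and 17.7, 18.5 and 21.9 CPM in Cav1-null. All 9 d17 libraries lay above all 9 d15 libraries, while d12 and d15 overlapped in AKR/J and Cav1-null. Npy rose in the late phase by log2 1.35 ± 0.22 (adjusted p = 0.00453) in AKR/J, log2 1.11 ± 0.28 (adjusted p = 0.0408) in C57BL/6J and log2 1.04 ± 0.14 (adjusted p = 0.000113) in Cav1-null (log2 fold change ± SE throughout). The call in AKR/J was kept whichever of the 6 libraries was left out (adjusted p up to 0.0341), as was that in Cav1-null (adjusted p up to 0.00145), and in C57BL/6J it was lost when d15 replicate 1, 2 or 3 or d17 replicate 3 was left out (adjusted p = 0.0745 to 0.159). Early-phase values were 1.06 ± 0.50 (adjusted p = 0.149) in AKR/J, 1.28 ± 0.56 (adjusted p = 0.149) in C57BL/6J and 0.78 ± 0.28 (adjusted p = 0.083) in Cav1-null.

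Of the NPY receptors, Npy1r, a receptor through which NPY drives feeding, rose in the late phase in all 3 strains, by 1.40 ± 0.23, 1.71 ± 0.23 and 1.41 ± 0.13 in AKR/J, C57BL/6J and Cav1-null, and reached 11.4 ± 2.85, 14.7 ± 0.896 and 17.3 ± 1.67 CPM (mean ± SD, n = 3) on d17. Npy5r rose in the late phase in AKR/J (1.93 ± 0.37) and C57BL/6J (1.62 ± 0.39) and in the early phase in Cav1-null (1.38 ± 0.43). Npy2r, the presynaptic receptor, rose in both phases in AKR/J, from 0.0219 ± 0.0380 to 0.940 ± 0.137 and 2.48 ± 0.589 CPM, and in the early phase in C57BL/6J (1.82 ± 0.34).

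Sst (ENSMUSG00000004366, chr16:23707321-23711733, minus strand) encodes somatostatin, which restrains growth hormone release and marks a large class of GABAergic interneurons. On d12 its level was 11.5, 4.64 and 24.8 CPM in AKR/J, 42.0, 34.0 and 13.2 CPM in C57BL/6J and 36.2, 41.3 and 28.1 CPM in Cav1-null. The d15 libraries had 42.5, 30.6 and 42.8 CPM in AKR/J, 45.6, 53.7 and 57.9 CPM in C57BL/6J and 54.9, 55.7 and 47.5 CPM in Cav1-null. Those of d17 had 49.6, 55.2 and 67.6 CPM in AKR/J, 80.2, 51.1 and 62.0 CPM in C57BL/6J and 60.8, 52.6 and 55.7 CPM in Cav1-null. The d15 libraries lay above those of d12 in every strain, but d15 and d17 were apart only in AKR/J. Sst rose in the early phase in Cav1-null by log2 0.59 ± 0.14 (adjusted p = 0.0156) and in the late phase in AKR/J by log2 0.59 ± 0.15 (adjusted p = 0.0286). The former call was lost when d15 replicate 1 or 2 was left out (adjusted p = 0.0729 to 0.0733), and the latter was lost when d17 replicate 2 or 3 was left out (adjusted p = 0.095 to 0.112). The early-phase values in AKR/J and C57BL/6J were 1.47 ± 0.51 (adjusted p = 0.0614) and 0.77 ± 0.37 (adjusted p = 0.174), and those of the late phase in C57BL/6J and Cav1-null were 0.36 ± 0.19 (adjusted p = 0.221) and 0.10 ± 0.09 (adjusted p = 0.433).

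C57BL/6J d12 replicate 3 was low for Sst, Npy, Tac1 and Pdyn together. Its interneuron list summed to 645 CPM against 1541 and 1178 CPM in the other libraries of the group, and its neuron list to 4106 against 5900 and 7239 CPM. The part of this in the d12 values was not tested. Of the somatostatin receptors, Sstr2 rose in AKR/J in the early phase (2.07 ± 0.36) and fell in the late phase in C57BL/6J (-1.14 ± 0.24) and Cav1-null (-1.07 ± 0.11). Sstr1 rose in both phases in AKR/J (3.37 ± 0.41 and 0.82 ± 0.23) and in Cav1-null (0.89 ± 0.26 and 1.11 ± 0.15). Sstr3 rose in AKR/J in the early phase (4.01 ± 0.90) from 0.0933 ± 0.0992 CPM (mean ± SD, n = 3) and fell in C57BL/6J in the late phase (-1.08 ± 0.19).

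Tac1 (ENSMUSG00000061762, chr6:7554120-7565834, plus strand) encodes substance P and neurokinin A, the tachykinins of striatal direct-pathway neurons, brainstem and sensory cells. On d12 its level was 9.61, 10.8 and 11.4 CPM in AKR/J, 8.87, 7.63 and 4.03 CPM in C57BL/6J and 11.3, 14.4 and 12.0 CPM in Cav1-null. By d15 it was at 15.1, 14.5 and 11.8 CPM in AKR/J, 12.8, 13.9 and 15.5 CPM in C57BL/6J and 25.8, 25.0 and 24.4 CPM in Cav1-null. By d17 it was at 25.5, 29.2 and 35.8 CPM in AKR/J, 20.9, 25.4 and 25.7 CPM in C57BL/6J and 32.8, 37.0 and 27.5 CPM in Cav1-null. Each later day lay wholly above the earlier one in every strain, which no other of the 10 genes did. In AKR/J, C57BL/6J and Cav1-null, 29.8%, 23% and 21.2% of all genes lay wholly higher on d15 than on d12, and 20.5%, 16.1% and 21.6% on d17 than on d15. Tac1 rose in the late phase in AKR/J by log2 1.14 ± 0.16 (adjusted p = 0.00229), in C57BL/6J by log2 0.83 ± 0.15 (adjusted p = 0.016) and in Cav1-null by log2 0.38 ± 0.11 (adjusted p = 0.0184). In the early phase it rose in Cav1-null by log2 1.00 ± 0.12 (adjusted p = 0.00108), and the values in C57BL/6J and AKR/J were 0.99 ± 0.28 (adjusted p = 0.0538) and 0.33 ± 0.21 (adjusted p = 0.27). The call in AKR/J was kept whichever of the 6 libraries was left out (adjusted p up to 0.0189), and so was the early call in Cav1-null (adjusted p up to 0.011). The late-phase call was lost when d15 replicate 1 or 2 or d17 replicate 3 was left out (adjusted p = 0.0845 to 0.0908) in C57BL/6J and lost when d15 replicate 2 or 3 or d17 replicate 2 was left out (adjusted p = 0.057 to 0.076) in Cav1-null. Tacr1, the receptor of substance P, rose in AKR/J in the early phase, by 2.41 ± 0.39, from 0.719 ± 0.150 to 4.01 ± 1.02 CPM (mean ± SD, n = 3).

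The splice table, which counts reads across each junction, held 3 junctions of Tac1 and 2 of Pdyn and none of the other members. A junction of Tac1 joins exon 3 to exon 5 and so leaves out exon 4, printed above, and another joins exon 6 to exon 7. On d15 reads that left out exon 4 numbered 72, 69 and 43 in AKR/J, 74, 51 and 63 in C57BL/6J and 85, 84 and 108 in Cav1-null. Reads from exon 6 to exon 7 numbered 83, 87 and 47 in AKR/J, 79, 55 and 74 in C57BL/6J and 117, 89 and 118 in Cav1-null. Reads of the former junction were 69.2% to 89.5% of those of the latter in the 9 groups, taken over the libraries with reads of all 3 junctions, of which there was 1 each in C57BL/6J d17 and Cav1-null d17 and 2 each in AKR/J d12 and C57BL/6J d15. No ordering of strains or days was tested, since over the libraries with reads of both junctions the range within a single group reached from 68.1% to 111%. Junction reads that include exon 4 were not in the table, so the share of the 2 forms was not measured, and in 3 libraries the junction of exons 3 and 5 is listed at 0, which the filter on junctions can also give.

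Penk (ENSMUSG00000045573, chr4:4132722-4141856, minus strand) encodes the precursor of the enkephalins, opioid peptides of striatal indirect-pathway neurons. A pair of annotated genes, A830012C17Rik and Gm70307, overlaps it on the other strand, and the counting of strand is not stated. On d12 its level was 1.98, 2.86 and 12.2 CPM in AKR/J, 3.53, 5.74 and 12.5 CPM in C57BL/6J and 2.58, 2.14 and 19.4 CPM in Cav1-null. The levels of d15 were 2.54, 14.3 and 5.56 CPM in AKR/J, 15.0, 5.52 and 13.9 CPM in C57BL/6J and 7.46, 7.65 and 4.85 CPM in Cav1-null. The levels of d17 were 7.91, 8.17 and 8.35 CPM in AKR/J, 19.6, 7.65 and 17.4 CPM in C57BL/6J and 11.2, 10.8 and 9.76 CPM in Cav1-null. In each strain 1 d12 library stood far above the other 2, and d15 and d17 were apart only in Cav1-null. Penk rose there in the late phase by log2 0.68 ± 0.17 (adjusted p = 0.00887), a call kept whichever of the 6 libraries was left out (adjusted p up to 0.0265), and no other comparison of days was called with every library in. It was also called from d15 to d17 in AKR/J when d15 replicate 2, its highest library, was left out, and from d12 to d15 in Cav1-null when d12 replicate 3 was. The latter value was -0.29 ± 0.74 with all libraries, while the d12 libraries other than replicate 3 lay below all of d15, so the direction of this change rests on that library.

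Connective tissue markers were high in most libraries with high Penk. On d12 their list summed to 1628, 770 and 1367 CPM in AKR/J, 515, 1083 and 1355 CPM in C57BL/6J and 382, 270 and 1481 CPM in Cav1-null, and in C57BL/6J and Cav1-null the replicate with most Penk, replicate 3, was also the highest in this list. On d15 the list summed to 226, 1658 and 218 CPM in AKR/J, 5739, 499 and 734 CPM in C57BL/6J and 157, 264 and 183 CPM in Cav1-null, with the highest library again that of the highest Penk in all 3 strains. AKR/J d12 replicate 1 had much of this RNA (1628 CPM) at 1.98 CPM of Penk, and C57BL/6J d17 replicate 3 had little (249 CPM) at 17.4 CPM of Penk. In the late phase of Cav1-null, where Penk was called, the list was low on both days, at 245, 144 and 158 CPM on d17. Whether this tissue supplied Penk RNA was not tested.

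**Figure D3:**
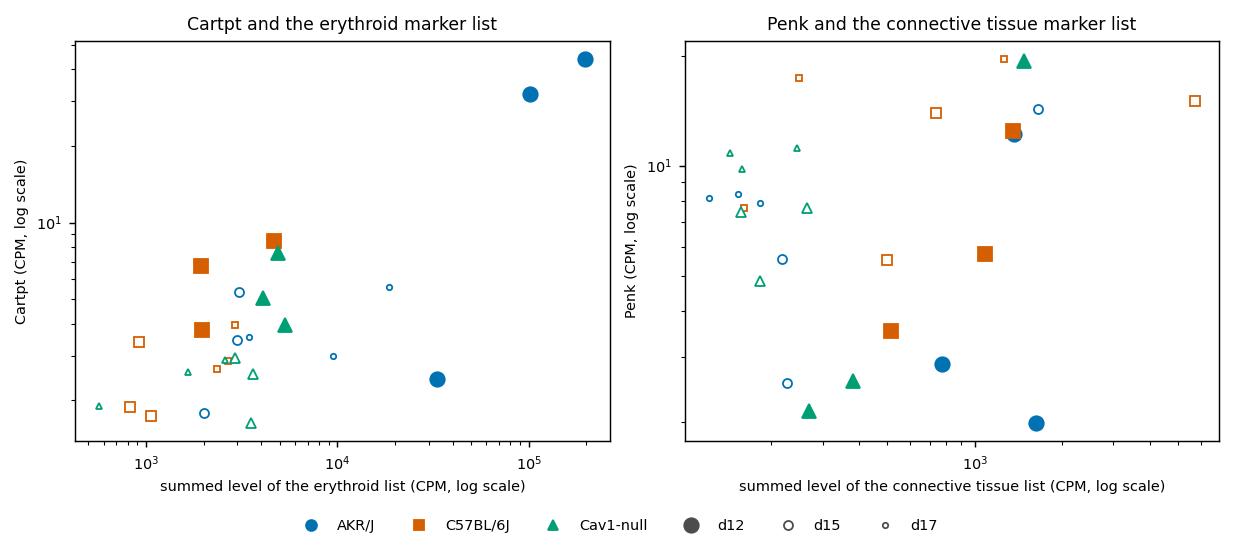
Level of Cartpt against the summed level of the erythroid list and of Penk against that of the connective tissue list, 1 point per library, both axes logarithmic, with large filled symbols for d12. The AKR/J d12 libraries with the highest erythroid level hold the most Cartpt, and libraries above 10 CPM of Penk lie at both ends of the connective tissue axis.

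Pdyn (ENSMUSG00000027400, chr2:129528469-129541945, minus strand) encodes the precursor of the dynorphins, opioid peptides of the direct pathway that bind the kappa receptor. On d12 its level was 0.0825, 0.691 and 0.711 CPM in AKR/J, 2.52, 3.06 and 1.08 CPM in C57BL/6J and 1.31, 3.79 and 3.62 CPM in Cav1-null. Libraries of d15 held 1.92, 2.60 and 4.89 CPM in AKR/J, 5.51, 5.43 and 6.28 CPM in C57BL/6J and 3.31, 2.49 and 3.22 CPM in Cav1-null. Libraries of d17 held 2.79, 3.47 and 3.81 CPM in AKR/J, 9.77, 3.79 and 8.31 CPM in C57BL/6J and 5.05, 5.32 and 5.44 CPM in Cav1-null. The d15 libraries lay above those of d12 in AKR/J and C57BL/6J, and those of d17 above d15 in Cav1-null. Pdyn rose in the early phase by log2 2.60 ± 0.71 (adjusted p = 0.0274) in AKR/J and log2 1.33 ± 0.35 (adjusted p = 0.0472) in C57BL/6J, and in Cav1-null in the late phase by log2 0.81 ± 0.19 (adjusted p = 0.00524). The AKR/J call was lost when d12 replicate 3 or d15 replicate 1 or 3 was left out (adjusted p = 0.0506 to 0.119), and the C57BL/6J call was lost when d12 replicate 1 or d15 replicate 1, 2 or 3 was left out (adjusted p = 0.0961 to 0.164). The Cav1-null call was kept whichever of the 6 libraries was left out (adjusted p up to 0.0266). The value in Cav1-null in the early phase was 0.04 ± 0.39 (adjusted p = 0.949), and the difference of that change from C57BL/6J was -1.31 ± 0.56 with an adjusted p of 0.299, so the strains were not shown to differ in timing. C57BL/6J d17 replicate 2 was the lowest of its group for Pdyn, Npy and Penk, and its striatal list summed to 635 CPM against 1222 and 916 CPM in the others, the part of which was not tested.

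Of the opioid receptors, Oprk1, the kappa receptor of dynorphin, rose in the late phase in all 3 strains, by 1.62 ± 0.24, 2.11 ± 0.33 and 1.44 ± 0.15 for AKR/J, C57BL/6J and Cav1-null, and also in the early phase in Cav1-null (1.67 ± 0.25). Its level on d17 was 5.07 ± 0.601, 7.61 ± 2.47 and 9.63 ± 1.14 CPM (mean ± SD, n = 3). Oprm1, the mu receptor, rose in both phases in AKR/J (2.47 ± 0.78 and 1.12 ± 0.25) and Cav1-null (1.58 ± 0.33 and 0.85 ± 0.22). Oprd1, the delta receptor that enkephalins bind, rose in the early phase in C57BL/6J (1.97 ± 0.53) and in the late phase in AKR/J (1.62 ± 0.49).

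Cartpt (ENSMUSG00000021647, chr13:100034990-100047006, minus strand) encodes the CART peptides, which reduce feeding. It was the only one of the 10 genes called lower between days. Trh, Penk, Gal and Oxt also had a lower mean on the later day in some comparison of days, without a call. On d12 its level was 32.0, 2.44 and 44.0 CPM in AKR/J, 6.72, 3.78 and 8.48 CPM in C57BL/6J and 3.96, 7.62 and 5.05 CPM in Cav1-null. By d15 it was at 1.79, 3.45 and 5.34 CPM in AKR/J, 1.73, 1.89 and 3.39 CPM in C57BL/6J and 2.93, 2.55 and 1.63 CPM in Cav1-null. By d17 it was at 2.98, 3.54 and 5.58 CPM in AKR/J, 2.65, 3.95 and 2.85 CPM in C57BL/6J and 2.87, 1.90 and 2.58 CPM in Cav1-null. The d12 and d15 libraries were apart in C57BL/6J and Cav1-null, where 21.4% and 21.5% of all genes lay wholly lower on d15, and they overlapped in AKR/J, where replicate 2 was as low on d12 as the libraries of d15. Cartpt fell in the early phase, with log2 fold changes of -2.93 ± 0.88 (adjusted p = 0.0381) in AKR/J, -1.50 ± 0.40 (adjusted p = 0.0475) in C57BL/6J and -1.22 ± 0.32 (adjusted p = 0.0251) in Cav1-null. In the early phase of Cav1-null, Sst was called higher and Cartpt lower, calls that the model of all 27 libraries did not keep. In AKR/J and C57BL/6J, Sst was not called in that phase. Both genes hold the full element TGACGTCA printed above, and its part in these changes was not tested.

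Each of the 3 calls of Cartpt was lost when a single library was left out. In AKR/J the call was lost when d12 replicate 1 or 3 or d15 replicate 1, 2 or 3 was left out (adjusted p = 0.084 to 0.12), in C57BL/6J it was lost when d12 replicate 1 or 3 or d15 replicate 1, 2 or 3 was left out (adjusted p = 0.0773 to 0.159), and in Cav1-null it was lost when d12 replicate 2 or d15 replicate 1, 2 or 3 was left out (adjusted p = 0.0525 to 0.0947). The AKR/J d12 libraries with high Cartpt, replicates 1 and 3, also had the highest erythroid level, 101722 and 197902 CPM against 33242 CPM in replicate 2. AKR/J d17 replicate 3, with the highest erythroid level outside d12 (18615 CPM), had 5.58 CPM of Cartpt, the highest of the 9 d17 libraries. Other libraries went another way. AKR/J d12 replicate 2 had 2.44 CPM of Cartpt at 33242 CPM. AKR/J d15 replicate 3 had 5.34 CPM of Cartpt, where no d15 library of AKR/J exceeded 3069 CPM of the erythroid list. With the erythroid, placental and yolk sac genes left out of the counts, the AKR/J values were -2.93 (adjusted p = 0.0375) for Cartpt and 2.60 (adjusted p = 0.0271) for Pdyn. Leaving those genes out rescales the libraries and removes no Cartpt or Pdyn read that other cells supply. The part of other cells in the AKR/J libraries was not tested. In C57BL/6J the erythroid list was at 1944, 1971 and 4673 CPM on d12 and 1067, 825 and 918 CPM on d15. In Cav1-null it was at 5351, 4887 and 4073 CPM on d12 and 2910, 3617 and 3536 CPM on d15.

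Gal (ENSMUSG00000024907, chr19:3459912-3464881, minus strand) encodes galanin, which modulates feeding, arousal and pituitary secretion. On d12 its level was 0.412, 0.0658 and 1.32 CPM in AKR/J, 0.442, 0.189 and 0.254 CPM in C57BL/6J and 0.999, 0.765 and 2.99 CPM in Cav1-null. On d15 it was 0.880, 1.53 and 1.57 CPM in AKR/J, 1.40, 0.826 and 1.47 CPM in C57BL/6J and 1.74, 1.13 and 1.32 CPM in Cav1-null. On d17 it was 1.23, 1.81 and 3.17 CPM in AKR/J, 2.65, 1.97 and 2.73 CPM in C57BL/6J and 1.57, 3.22 and 2.67 CPM in Cav1-null. The days were apart in C57BL/6J and overlapped in AKR/J and Cav1-null. Gal rose in C57BL/6J in the early phase by log2 2.0 ± 0.46 (adjusted p = 0.0348), a call lost when d12 replicate 1 or 3 or d15 replicate 1, 2 or 3 was left out (adjusted p = 0.0529 to 0.142). The late-phase values were 0.66 ± 0.41 (adjusted p = 0.283) in AKR/J, 1.05 ± 0.31 (adjusted p = 0.0648) in C57BL/6J and 0.84 ± 0.31 (adjusted p = 0.0643) in Cav1-null. Cav1-null d12 replicate 3, the highest for Gal on that day, also had a sensory ganglion list of 170 CPM against 42.0 and 54.4 CPM in the group's other libraries, and the part of such tissue was not tested. Galr1, its inhibitory receptor, rose in C57BL/6J in the early phase (2.88 ± 0.65) and in Cav1-null in the late phase (0.92 ± 0.28), and Galr2 was called in neither phase of any strain.

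Trh (ENSMUSG00000005892, chr6:92219021-92221631, minus strand) encodes thyrotropin-releasing hormone, the hypothalamic signal to the pituitary-thyroid axis. The annotated gene Gm67229 overlaps it on the other strand. It was low throughout, from 0.395 to 3.18 CPM with a median of 1.48 CPM, or 12 to 104 reads a library. Its group means were 0.961 ± 0.763, 1.54 ± 0.159 and 1.24 ± 0.434 CPM (mean ± SD, n = 3) on d12, d15 and d17 in AKR/J, 1.40 ± 0.305, 1.50 ± 0.307 and 1.32 ± 0.204 CPM in C57BL/6J and 1.98 ± 1.10, 1.47 ± 0.101 and 2.26 ± 0.859 CPM in Cav1-null. Every group overlapped its neighbour in the order of means. Trh was tested in all 16 comparisons and called in none by edgeR with every library in, though it was called from d15 to d17 in Cav1-null when d17 replicate 3 was left out. It had log2 fold changes between days from -0.42 ± 0.40 to 0.65 ± 0.59, while its receptor Trhr rose in both phases in C57BL/6J (1.56 ± 0.38 and 1.73 ± 0.25) and Cav1-null (2.09 ± 0.33 and 0.79 ± 0.22) and in the late phase in AKR/J (1.58 ± 0.23). Trhde, the peptidase that degrades TRH outside the cell, rose in both phases in AKR/J (1.78 ± 0.29 and 0.71 ± 0.21) and Cav1-null (0.60 ± 0.18 and 0.51 ± 0.12) and in the early phase in C57BL/6J (1.17 ± 0.31).

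Avp (ENSMUSG00000037727, chr2:130422540-130424640, minus strand) encodes vasopressin, made by magnocellular neurons of the paraventricular and supraoptic nuclei. On d12 it had 0, 0 and 0 reads in AKR/J, 0, 4 and 0 in C57BL/6J and 2, 6 and 0 in Cav1-null, so most d12 libraries held none or few. On d15 its level was 0.628, 0.428 and 0.256 CPM in AKR/J, 0.891, 1.36 and 1.33 CPM in C57BL/6J and 2.02, 1.32 and 2.03 CPM in Cav1-null. On d17 it was 5.15, 2.75 and 0.200 CPM in AKR/J, 7.78, 2.78 and 4.74 CPM in C57BL/6J and 2.71, 4.85 and 2.54 CPM in Cav1-null. Each later day lay above the earlier one in C57BL/6J and Cav1-null, and in AKR/J replicate 3 of d17 was below all d15 libraries. Avp rose in the early phase by log2 4.66 ± 0.85 (adjusted p = 0.0233) in C57BL/6J and log2 4.40 ± 0.70 (adjusted p = 0.00313) in Cav1-null, values that depend on the few reads of d12. It passed the filter on low counts through its d15 libraries, so these tests could hardly have called it lower. In the late phase it rose by log2 2.17 ± 0.41 (adjusted p = 0.0198) in C57BL/6J and log2 0.91 ± 0.30 (adjusted p = 0.0347) in Cav1-null, and AKR/J had 2.63 ± 0.90 (adjusted p = 0.0703). With the 3 d12 libraries of AKR/J set at 3 reads each, the approximate upper 95% limit for a count of 0 (counting error alone), the mean level was at least 3.5-fold higher on d15 and at least 21.6-fold higher on d17. Without d17 replicate 1 the latter bound was 11.8-fold, and without replicate 2 or 3 it was 21.4- and 31.6-fold, while the d15 bound was 2.74-, 3.54- and 4.23-fold without replicate 1, 2 or 3.

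The early call in Cav1-null was kept whichever of the 6 libraries was left out (adjusted p up to 0.0224), and in C57BL/6J it was lost when d12 replicate 1 or d15 replicate 1, 2 or 3 was left out (adjusted p = 0.0629 to 0.123). The late call was lost when d15 replicate 1, 2 or 3 or d17 replicate 3 was left out (adjusted p = 0.0642 to 0.0891) in C57BL/6J and lost when d15 replicate 1, 2 or 3 or d17 replicate 2 was left out (adjusted p = 0.0524 to 0.201) in Cav1-null. The fitted early value in C57BL/6J was 8.30 without d12 replicate 2, the only d12 library of that strain with a read, a value that depends on the prior count of the fit and is no bound. Avpr1a, the vasopressin receptor of the brain, rose in both phases in Cav1-null (1.25 ± 0.37 and 0.79 ± 0.27), and Avpr1b, the pituitary receptor, was tested in no comparison of days.

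Oxt (ENSMUSG00000027301, chr2:130418091-130418974, plus strand) encodes oxytocin and lies 3565 bases from Avp, tail to tail, in a locus where Pdyn lies 876.1 kb away. It was near the limit of detection, with 0 to 20 reads and 0 to 0.669 CPM a library. On d12 it had 4, 7 and 4 reads in AKR/J, 1, 0 and 1 in C57BL/6J and 2, 1 and 2 in Cav1-null. On d15 the reads were 2, 2 and 7 in AKR/J, 4, 2 and 4 in C57BL/6J and 12, 11 and 8 in Cav1-null, which lay above C57BL/6J with no overlap, as AKR/J did on d12. Of all genes, 29% and 17.5% were wholly higher in these comparisons, shares of a set with at least 1 CPM in 3 libraries that leaves out Oxt itself. On d17 it had 12, 5 and 11 reads in AKR/J, 20, 6 and 6 in C57BL/6J and 20, 10 and 5 in Cav1-null. The d17 libraries lay above those of d12 in C57BL/6J and Cav1-null, and the AKR/J days overlapped, with a lower mean on d15 (0.116 CPM) than on d12 (0.199 CPM). Among comparisons of days it passed the filter in the late phase of Cav1-null alone, with 0.16 ± 0.57 (adjusted p = 0.875), and was not called. Avp and Oxt share a run of 127 bases in their transcripts, which is shorter than the 150-base reads, and how reads with several matches were counted is not stated. Oxtr, the oxytocin receptor, rose in the late phase in all 3 strains, by 1.11 ± 0.30, 1.12 ± 0.26 and 1.24 ± 0.25, and in the early phase in AKR/J (3.20 ± 0.58) and Cav1-null (1.78 ± 0.35).

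Over the whole list of 21 receptors of these peptides, rises outnumbered falls in every comparison of days (median log2 fold change of the genes tested in parentheses). Between d12 and d15, 7 of 17 rose in AKR/J (median 2.07), 5 of 16 rose in C57BL/6J (median 1.32), and 7 of 16 rose in Cav1-null (median 1.09). Between d15 and d17, 9 of 17 rose in AKR/J (median 1.11), 5 of 17 rose and 2 fell in C57BL/6J (median 0.89), and 8 of 16 rose and 1 fell in Cav1-null (median 0.79). The falls were Sstr2 and Sstr3, and 17 receptors or fewer passed the filter in each comparison. These counts stand beside the shares of all genes called higher, which were 14.8%, 7.08% and 11.6% in the early phase and 11.6%, 7.46% and 14.5% in the late phase.

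**Figure D4:**
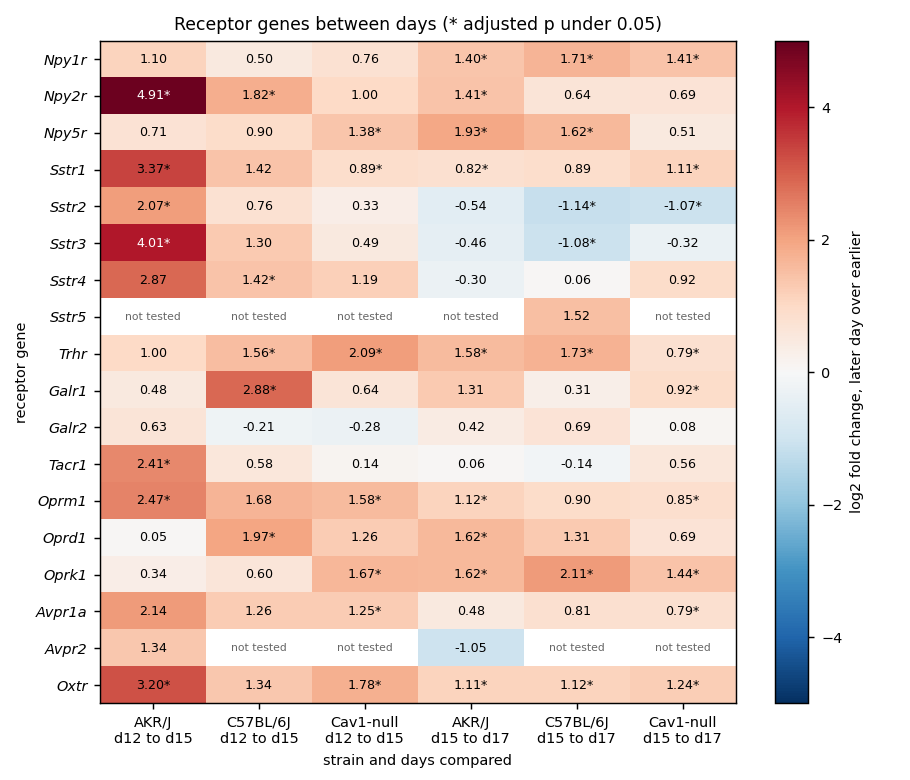
Log2 fold change of each receptor gene between consecutive days, in rows by gene and in columns by strain and phase, with an asterisk at an adjusted p under 0.05. Npy1r, Oprk1, Trhr and Oxtr carry an asterisk in all 3 late-phase columns, and Sstr2 is below 0 in all of them.

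None of the 16 genes of peptide processing and the secretory granule fell by edgeR between days. In the early phase 12 of 16 rose in AKR/J (median 1.23), 4 of 16 rose in C57BL/6J (median 0.66), and 5 of 16 rose in Cav1-null (median 0.28). In the late phase 6 of 16 rose in AKR/J (median 0.44), 2 of 16 rose in C57BL/6J (median 0.18), and 10 of 16 rose in Cav1-null (median 0.56). Beside these stand shares of all genes called higher of 14.8%, 7.08% and 11.6% early and 11.6%, 7.46% and 14.5% late, and the 2 late rises in C57BL/6J are the count nearest to that rate. The largest early rises in AKR/J were Vgf (3.30 ± 0.57) and Scg2 (2.82 ± 0.39), both granins of the dense-core granule. Scg2 rose in all 6 comparisons, with 1.45 ± 0.38 and 0.80 ± 0.21 in C57BL/6J. Among the enzymes, Pcsk2, a prohormone convertase, rose in AKR/J in the early phase (1.50 ± 0.34) and in Cav1-null in the late phase (0.72 ± 0.10). Of the 8 peptidases that end peptide signals, 2, 1 and 2 rose in the early phase in AKR/J, C57BL/6J and Cav1-null (medians 0.23, 0.23 and -0.02), with 1 fall, Prep, in Cav1-null. Later 2, 0 and 3 rose and none fell by edgeR (medians -0.20, -0.09 and 0.35).

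A list of 20 other neuropeptide genes held 14 to 16 that could be tested. Between d12 and d15, 3 of 15 rose in AKR/J (median -0.24), 2 of 15 rose in C57BL/6J (median 0.45), and 3 of 15 rose and 1 fell in Cav1-null (median 0.31). Between d15 and d17, 4 of 16 rose in AKR/J (median 0.24), 3 of 14 rose in C57BL/6J (median 0.40), and 3 of 15 rose and 1 fell in Cav1-null (median 0.46). With 14.8%, 7.08% and 11.6% of all genes called higher early and 11.6%, 7.46% and 14.5% late, about 1 or 2 genes of a list of this size would be counted as rises at the rate of all genes, and the counts were above that rate in each comparison by few genes. Nts, neurotensin, rose in the late phase in all 3 strains, by 1.61 ± 0.40, 2.50 ± 0.34 and 1.13 ± 0.20, as did Grp, gastrin-releasing peptide (1.69 ± 0.29, 1.82 ± 0.28 and 0.77 ± 0.23). Pomc, which opposes Npy in the arcuate nucleus, fell in the late phase in Cav1-null (-0.85 ± 0.28) and was called in no other comparison of days, and Agrp, which is co-released with NPY, was called in none.

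The transcription factors that specify hypothalamic peptide neurons had more falls than rises in every comparison of days. In the early phase 1 of 16 rose and 2 fell in AKR/J (median 0.38), 0 of 16 rose and 2 fell in C57BL/6J (median -0.30), and 0 of 16 rose and 8 fell in Cav1-null (median -1.07). In the late phase 0 of 16 rose and 8 fell in AKR/J (median -1.37), 0 of 16 rose and 8 fell in C57BL/6J (median -1.04), and 0 of 15 rose and 3 fell in Cav1-null (median -0.28). Of all genes, 14%, 7.8% and 11.8% were called lower early and 10.4%, 5.58% and 12.8% late. The falls lay near these shares from d12 to d15 in AKR/J and C57BL/6J and from d15 to d17 in Cav1-null, and above them in the other comparisons. The largest falls among the calls of the AKR/J late phase were Dbx1 (-2.39 ± 0.50) and Hmx2 (-2.23 ± 0.51). Otp, required for the neurons that make Avp, Oxt, Trh and Sst in the paraventricular nucleus, fell in the late phase in AKR/J (-1.76 ± 0.30) and C57BL/6J (-1.42 ± 0.33) and in the early phase in Cav1-null (-1.11 ± 0.17). Striatal projection neuron markers rose more often than they fell in 5 of the 6 comparisons. Between d12 and d15, 7 of 16 rose in AKR/J (median 0.93), 6 of 16 rose in C57BL/6J (median 0.55), and 6 of 16 rose and 3 fell in Cav1-null (median 0.43). Between d15 and d17, 6 of 16 rose and 2 fell in AKR/J (median 0.28), 1 of 16 rose and 2 fell in C57BL/6J (median 0.01), and 6 of 16 rose and 1 fell in Cav1-null (median 0.34). The shares of all genes called higher were 14.8%, 7.08% and 11.6% early and 11.6%, 7.46% and 14.5% late, and the 1 rise in the late phase of C57BL/6J lay near that share. Ppp1r1b, which encodes DARPP-32, rose in the AKR/J early phase (3.19 ± 0.50). Drd2, of the indirect pathway that makes enkephalin, rose in both phases in AKR/J (2.23 ± 0.51 and 1.31 ± 0.26) and Cav1-null (1.59 ± 0.29 and 1.35 ± 0.19) and in the early phase in C57BL/6J (1.41 ± 0.38). Drd1, of the direct pathway that makes Tac1 and Pdyn, rose in both phases in C57BL/6J (2.49 ± 0.30 and 0.86 ± 0.23), in the early phase in Cav1-null (2.34 ± 0.28) and in the late phase in AKR/J (1.54 ± 0.22). The striatal genes named here were all rises, and the striatal markers counted above as falls are not named. The GABAergic interneuron genes are of the class that makes Sst and Npy. In the early phase 6 of 16 rose in AKR/J (median 0.91), 2 of 16 rose in C57BL/6J (median 0.19), and 3 of 16 rose in Cav1-null (median -0.15). In the late phase 1 of 16 rose and 3 fell in AKR/J (median -0.30), 1 of 16 rose and 3 fell in C57BL/6J (median -0.62), and 2 of 16 rose and 5 fell in Cav1-null (median -0.19). Calls in either direction were thus 6, 2 and 3 of 16 early and 4, 4 and 7 late. Of all genes, 28.9%, 14.9% and 23.4% were called early and 22.1%, 13% and 27.3% late, so that 4 of the 6 shares lay above that of all genes and those of the early phase in C57BL/6J and Cav1-null below it.

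Markers of the other cells that the RNA could hold are given as ranges over the 6 comparisons of days. Of 10 neuron markers, 3 to 9 rose and 0 fell of 10 tested (medians -0.11 to 1.43). Of 10 radial glia and progenitor markers, 0 to 1 rose and 4 to 8 fell of 10 tested (medians -1.28 to -0.48). Of 13 erythroid genes, 0 to 6 rose and 3 to 11 fell of 11 to 12 tested (medians -4.90 to 1.23). Of 12 trophoblast and decidua genes, 0 to 1 rose and 0 to 5 fell of 1 to 6 tested (medians -8.21 to 0.91). Of 12 yolk sac genes, 0 to 3 rose and 0 to 7 fell of 7 to 10 tested (medians -5.64 to 0.98). Of 12 pituitary genes, 0 rose and 1 fell of 4 tested (medians -1.24 to 0.44). Of 10 sensory ganglion genes, 0 to 1 rose and 0 to 1 fell of 8 to 9 tested (medians -1.63 to 0.73). Of 12 eye genes, 0 to 1 rose and 0 to 2 fell of 6 to 7 tested (medians -0.23 to 1.09). Of 12 connective tissue genes, 0 to 2 rose and 0 to 4 fell of 11 to 12 tested (medians -2.42 to 0.27). The median and the balance of calls differed in sign for hypothalamic regulators and other neuropeptides in the early phase of AKR/J, interneuron genes and peptidases in the early phase of Cav1-null, pituitary genes in the early phase of C57BL/6J, neuron and striatal markers in its late phase, and peptidases from d15 to d17 in AKR/J. Over these comparisons 7.08 to 14.8% of all genes were called higher and 5.58 to 14% lower. The part of these shifts in the changes of the peptide genes was not tested.

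On 6 libraries a comparison, edgeR called 3 differences between strains among these genes, all on d15. On d12, edgeR called none of 7 tested between AKR/J and C57BL/6J, where 28.6% of all genes tested were called, and none of 8 between Cav1-null and C57BL/6J, where 0% were. At an unadjusted p under 0.05 there were 3 and 2, and DESeq2 called 1 (Pdyn) and 1 (Tac1). These d12 counts depend on the fit: with all 27 libraries in 1 model, Sst, Cartpt, Tac1, Pdyn and Oxt were called between AKR/J and C57BL/6J and Gal and Tac1 between Cav1-null and C57BL/6J, and with no filter on low counts Cartpt and Pdyn were called in the former and Gal in the latter. The AKR/J libraries of d12 are those with low neuron and high erythroid RNA. On d15, Avp was lower in AKR/J than in C57BL/6J with a log2 difference of -1.36 ± 0.40 (adjusted p = 0.0289), the only 1 of 9 called, against 41.1% of all genes, and Tac1 was higher and Pdyn lower in Cav1-null among 9, against 58.6%. The model of all libraries called none for AKR/J on that day, and Tac1 and Oxt for Cav1-null. At an unadjusted p under 0.05 there were 3 and 3 on d15. DESeq2 called Sst, Pdyn and Avp for AKR/J, and Tac1 and Pdyn for Cav1-null. By edgeR, Sst in AKR/J differed by -0.37 ± 0.14 (adjusted p = 0.0635), with every library below those of C57BL/6J, as for 31.8% of all genes. By edgeR on 6 libraries, the shares of all genes called on d15 are far above the members' own. On d17 none of 10 was called for AKR/J, against 0.742%, and none of 10 for Cav1-null, against 0.0491%, with 2 and 1 at an unadjusted p under 0.05 and 1 (Pdyn) and 0 by DESeq2.

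Tac1 in Cav1-null lay above C57BL/6J in every library of every day, as 12.9%, 29% and 6.15% of all genes did on d12, d15 and d17. The ratio of the group means was 1.83 on d12, 1.78 on d15 and 1.35 on d17, from group means of 12.5 ± 1.64, 25.1 ± 0.671 and 32.4 ± 4.74 CPM against 6.84 ± 2.51, 14.1 ± 1.34 and 24.0 ± 2.71 CPM (mean ± SD, n = 3). The difference on d15 was log2 0.87 ± 0.10 (adjusted p = 3.09e-05), a call kept whichever of the 6 libraries was left out (adjusted p up to 0.000293). On d12 it was 0.91 ± 0.30 (adjusted p = 0.144) and on d17 0.44 ± 0.16 (adjusted p = 0.575). Tac1 lies 9.74 Mb from Cav1 on chromosome 6, where a congenic line can also carry donor sequence, while Npy and Trh lie 32.5 and 74.9 Mb from it. Effects of the Cav1 allele and of linked sequence cannot be told apart here. AKR/J had 9.61, 10.8 and 11.4 CPM of Tac1 on d12, above every C57BL/6J library, and overlapped C57BL/6J on d15.

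Pdyn in Cav1-null was below C57BL/6J on d15 with a log2 difference of -0.89 ± 0.19 (adjusted p = 0.00202), with no overlap between the libraries (the case for 38.3% of all genes), a call kept whichever of the 6 libraries was left out (adjusted p up to 0.0114). On d12 and d17 the values were 0.43 ± 0.49 (adjusted p = 0.649) and -0.47 ± 0.33 (adjusted p = 0.588). In AKR/J the difference of Pdyn from C57BL/6J was -2.01 ± 0.73 (adjusted p = 0.0683) on d12, -0.81 ± 0.33 (adjusted p = 0.0867) on d15 and -1.14 ± 0.35 (adjusted p = 0.167) on d17, and no d12 or d15 library of AKR/J reached the lowest of C57BL/6J, as for 32.3% and 31.8% of all genes. DESeq2 called Pdyn lower in AKR/J on each of the 3 days. The 2 strains are compared with the same C57BL/6J libraries. The Avp difference between AKR/J and C57BL/6J on d15 was lost when AKR/J d15 replicate 2 or 3 or C57BL/6J d15 replicate 2 or 3 was left out (adjusted p = 0.0582 to 0.0922). Gal had the largest difference of the Cav1-null d12 comparison, 2.43 ± 0.63 (adjusted p = 0.107), with 0.999, 0.765 and 2.99 CPM against 0.442, 0.189 and 0.254 CPM. It did not pass on 6 libraries and passed in the model of all 27 libraries and when low counts were not filtered.

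**Figure D5:**
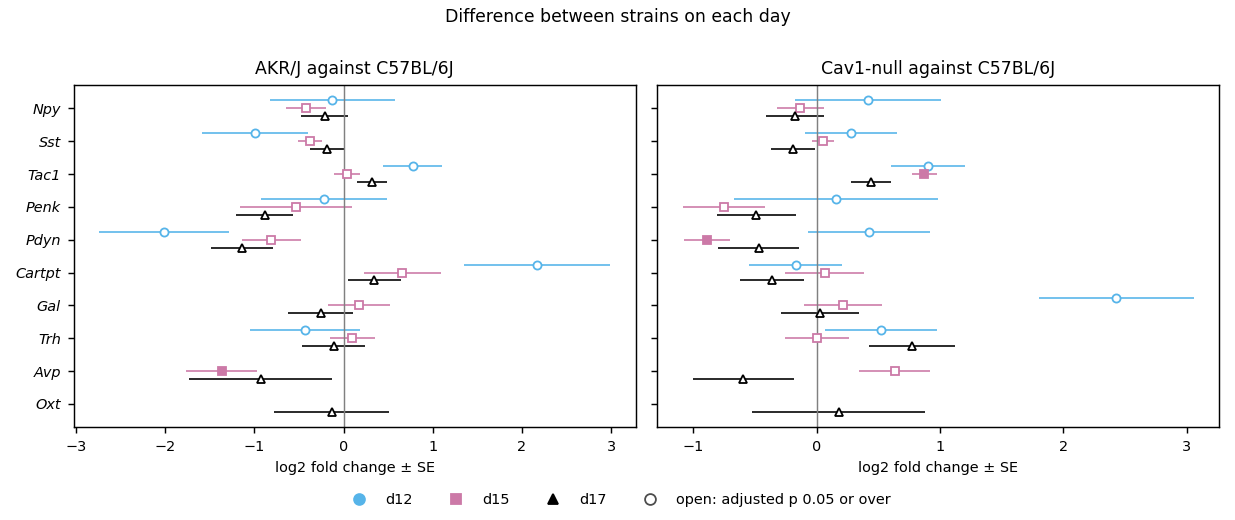
Log2 fold change of each gene against C57BL/6J on each day with its standard error, for AKR/J and for Cav1-null, from 6 libraries each, with filled symbols for an adjusted p under 0.05. Filled symbols stand at d15 alone, for Avp in AKR/J and for Tac1 and Pdyn in Cav1-null.

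The change between days itself was compared between strains by an interaction over 12 libraries, and no member was called by edgeR among 9 tested in the early phase and 10 in the late phase. For AKR/J against C57BL/6J, 0.0711% of all genes were called in the early phase and 0.00468% in the late phase, with 0 and 0 members at an unadjusted p under 0.05. For Cav1-null against C57BL/6J the shares were 0.00472% and 0.252%, with 2 and 2 members. DESeq2 called none of the members in any of the 4. The difference nearest to the threshold was that of Tac1 in the late phase, Cav1-null minus C57BL/6J, at -0.49 ± 0.18 with an adjusted p of 0.162. A member called in 1 strain and not in another is therefore not shown to differ between them.

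The genes whose level over the 27 libraries was most like each member were found by Pearson correlation of log2(CPM + 1) among 16437 genes with a mean of at least 1 CPM, as a description in which all points share the 9 groups and the depth of the libraries. They were Slc48a1 (r = 0.950), Ndfip1 (r = 0.946), Rac3 (r = 0.935) for Npy, Gabarapl1 (r = 0.945), Gng3 (r = 0.944), Syt4 (r = 0.940) for Sst and Igip (r = 0.954), Pkia (r = 0.951), B3galt2 (r = 0.951) for Tac1. For Pdyn they were Larp6 (r = 0.948), Vat1l (r = 0.947), Gnaz (r = 0.944), for Penk Prss12 (r = 0.895), Gpr157 (r = 0.875), Plxdc2 (r = 0.852) and for Gal Fkbp1b (r = 0.873), Arhgap24 (r = 0.860), Spock3 (r = 0.858). Avp was most like Lefty2 (r = 0.902), Dgkg (r = 0.898), Drd1 (r = 0.895), the last of which is the D1 dopamine receptor of the striatal list. Cartpt was most like Mif (r = 0.918), Atp5g3 (r = 0.909), Polr2l (r = 0.905), and Trh was most like Zfp39 (r = 0.649), Sec23a (r = 0.628), Dync1i2 (r = 0.618).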

How the data were processed

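RNA-seq libraries of 27 fetal brains (3 strains, 3 days, 3 libraries a group) were used. The gene table holds raw read counts that the authors deposited, made with FastQC, cutadapt, fastp and STAR on GRCm39, and their own differential tests used edgeR. The tool that counted reads, its strand setting and its treatment of multi-mapped reads are not given in the sources used here. The splice table holds deposited counts of reads over junctions from multi-sample 2-pass mapping, filtered by the authors on multi-mapped reads, overhang and low counts, so that a 0 can stand for removed reads.

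Genes were filtered with filterByExpr and scaled with TMM within the libraries of each comparison, and tested over the whole table with edgeR 4.0.16 (R 4.3.3, glmQLFit and glmQLFTest) with Benjamini-Hochberg adjustment over all genes tested. To give a standard error, the size of the log2 fold change was divided by the root of F. DESeq2 1.42.0, RLE size factors, library sizes alone, erythroid, placental and yolk sac genes left out, no filter, 1 model of all libraries, a replicate block and leaving out each library were alternatives. Scripts were tested on simulated data. Libraries held 26363697 to 39759702 reads, which makes values of a few reads imprecise. Levels were computed with Python 3.11.15 and pandas 2.3.3.

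The members and gene lists were chosen with earlier results of these data known. All 10 members are named. Of each other list, up to 4 genes with the largest called changes were named, receptors were named beside their peptide, and the 3 most correlated genes beside each member. Pcsk2, Prep, Pomc, Agrp, Otp, Drd1, Drd2 go beyond this rule and were chosen after their values were seen, and a gene within it is not reported here. Promoter sequences are from RefSeq (GRCm38.p6 table, 9 of 10 members matched) and were placed on GRCm39 by exact match, and exons are from GENCODE.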

Additional observations from a re-analysis of the deposited data

How the results depend on the processing

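No member called with every library in changed direction under any alternative. The number of members called moved by more than 1.5 times as follows, and the cause was not tested. In AKR/J from d12 to d15 it was 2, and 4 with no filter on low counts or with all 27 libraries in 1 model. In Cav1-null from d15 to d17 it was 5, and 0 with all 27 libraries in 1 model. Between AKR/J and C57BL/6J on d12 it was 0, and 1 with DESeq2, 2 with no filter and 5 with all 27 libraries in 1 model. On d15 it was 1, and 3 with DESeq2 and 0 with all 27 libraries in 1 model. On d17 it was 0, and 1 with DESeq2. Between Cav1-null and C57BL/6J on d12 it was 0, and 1 with DESeq2, 1 with no filter and 2 with all 27 libraries in 1 model. Leaving out 1 library gave 0 to 4 members in AKR/J and 0 to 4 in C57BL/6J from d12 to d15, 0 to 5 in C57BL/6J from d15 to d17, and 2 to 6 and 3 to 6 in Cav1-null in the early and late phase. It gave 0 to 1, 0 to 2 and 0 to 2 between AKR/J and C57BL/6J on d12, d15 and d17, and 0 to 2 between Cav1-null and C57BL/6J on d17. The 4 comparisons of changes between strains gave 0 under every alternative. The call of Cartpt was lost in AKR/J with library sizes alone (adjusted p = 0.0698) and in C57BL/6J with RLE size factors (adjusted p = 0.0504).

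The replicate numbers did not pair the samples. The correlation of the deviations of same-numbered libraries was -0.232 to 0.186, and in 0 comparisons was it over 0.1 for all 3 numbers. With the replicate number as a block, 0 members were called in C57BL/6J from d12 to d15 and 0 between AKR/J and C57BL/6J on d15, and the early call of Cartpt in AKR/J was lost (adjusted p = 0.108).

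Over all genes, the counts called between days moved by more than 1.5 times with all 27 libraries in 1 model, to 9568 from 5758 and 2366 from 4409 in the early and late phase of AKR/J, 4565 from 2594 for C57BL/6J in its late phase, and 3056 from 4666 and 829 from 5530 in Cav1-null. DESeq2 called 4827 against 2850 and 4581 against 2594 in C57BL/6J, and the replicate block 0 against 2850 in its early phase. Between AKR/J and C57BL/6J the model of all libraries called 10960 against 5529 on d12, 5233 against 8089 on d15 and 838 against 150 on d17, where DESeq2 called 1327, no filter 905 and the block 638. Between Cav1-null and C57BL/6J on d12, where edgeR called 0, DESeq2 called 2027, the model of all libraries 1734 and no filter 750, and on d17, against 10, DESeq2 called 48, no filter 30 and the block 3. For the changes between strains the counts were 15, 1, 1 and 54 for AKR/J and Cav1-null, early and late, and 1012, 45, 498 and 1436 with DESeq2, 1660, 0, 0 and 4 with all libraries, and 544, 4, 46 and 1010 with no filter. The block gave 6 for the former of these and 0 for the last, and library sizes alone gave 107 and 131.

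Library sizes alone shifted the median of all genes by over 0.1 (log2). It was 0.46 against 0.02 in AKR/J from d12 to d15, where 74.7% of the calls were higher against 51.4%, and 0.17 against 0.03 in the late phase of C57BL/6J, with 68.4% against 57.2%. Between AKR/J and C57BL/6J it was -0.38 against 0.02 on d12, with 30.2% higher against 50.6%, and 0.23 against 0.06 on d15, with 62.8% against 45.7%. Between Cav1-null and C57BL/6J on d15 it was 0.21 against 0.03, with 59.2% against 45.7%. For the early change of AKR/J against C57BL/6J, 83.2% of calls were higher against 6.67%, and RLE size factors gave 28.3% against 13% for the late change of Cav1-null. Oxt and the d12 values of Avp are limited by depth.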
